A study of Mus musculus with 12 samples.

Results

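The 10 genes described here are core components of the Notch pathway: the receptors Notch1, Notch2 and Notch3, the ligands Dll1 and Jag1, the DNA-binding factor Rbpj, and the Hes/Hey targets Hes1, Hes5, Hey1 and Hey2. They were chosen by name and account for 10 of the 17990 genes, and 17 transcript rows, in the deposited expression tables. All 10 were found in both tissues and all 10 passed the minimum of 0.5 FPKM, on average over the libraries of a tissue, that was asked of a gene to be tested. RNA was sequenced from mouse neural stem and progenitor cells (NSC/NPC) sampled along with the cells around them, either in the dentate gyrus (DG) of the hippocampus or in the subventricular zone (SVZ) along the lateral ventricles. Mice of genotype hGFAP/+;Dpy30F/+ served as controls and those of genotype hGFAP/+;Dpy30F/- as knockouts (KO). Dpy30 encodes a shared core subunit of the SET1/MLL complexes, which methylate histone H3 on the lysine that marks active promoters. There were 12 libraries, 3 in each of DG control, DG KO, SVZ control and SVZ KO, called a, b and c in the order of their columns.

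All 4 groups carried the hGFAP allele and a floxed Dpy30 allele, so the genotypes differed in the other Dpy30 allele, wild type in controls and deleted in KO. The labels do not spell out the hGFAP allele. In the mouse line commonly written this way the human GFAP promoter drives Cre recombinase in radial glia and neural stem cells, and deletion is inherited by the neurons and glia that descend from them but not by vessel cells or microglia. The sources used here do not give the age of the mice. Nothing in the labels states that the libraries of a group were taken from different animals, and the p-values therefore measure the spread between these libraries, part of which may be technical.

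Notch receptors are transmembrane proteins that are cut when a Delta-like or Jagged ligand on a neighbouring cell binds them, first by ADAM metalloproteases and then by gamma-secretase inside the membrane. The released intracellular domain joins RBPJ and the Mastermind coactivators on DNA and switches on genes of the Hes and Hey families, whose products are basic helix-loop-helix repressors that hold down proneural genes such as Neurog2. In the DG and the SVZ the pathway is best known for keeping neural stem cells undifferentiated, and in blood vessels the same receptors and targets act in endothelial and mural cells.

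Promoter sequences are shown for Hes5 and Hey2, the Hes/Hey members for which the RefSeq promoter table (build GRCm38.p6) held an entry, because RBPJ acts on such promoters. Each runs 5′ to 3′ on the strand of the gene, from 250 bases before the transcription start to 50 bases after it. Capitals mark the core letters of the RBPJ motif, TGGGAA, or TTCCCA where the motif lies on the opposite strand. The Hes5 window is chr4:154960673-154960972 on the plus strand and the Hey2 window is chr10:30842734-30843033 on the minus strand.
Hes5: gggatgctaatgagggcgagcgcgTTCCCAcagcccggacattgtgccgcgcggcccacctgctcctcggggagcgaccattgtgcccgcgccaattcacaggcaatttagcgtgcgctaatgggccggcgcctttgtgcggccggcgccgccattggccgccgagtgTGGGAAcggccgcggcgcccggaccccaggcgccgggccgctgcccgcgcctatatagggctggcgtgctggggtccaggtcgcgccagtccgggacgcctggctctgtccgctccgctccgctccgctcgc
Hey2: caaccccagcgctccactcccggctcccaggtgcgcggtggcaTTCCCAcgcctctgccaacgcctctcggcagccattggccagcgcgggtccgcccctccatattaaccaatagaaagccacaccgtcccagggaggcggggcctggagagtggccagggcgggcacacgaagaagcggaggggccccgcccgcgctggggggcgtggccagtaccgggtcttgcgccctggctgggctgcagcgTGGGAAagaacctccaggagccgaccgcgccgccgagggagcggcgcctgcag
In Hes5 the matches begin at positions -226 and -82 relative to the start, and in Hey2 at -207 and -3. The table held 10 starts of 8 members, and TGGGAA on either strand was found at 4 starts of 3 members, Rbpj, Hes5 and Hey2. It was held by 25.6% of all 32851 promoters listed. The letters CACNAG, an N-box bound by Hes proteins, were found on either strand at 4 of the 10 starts and in 42.5% of all promoters. These matches are descriptions of the sequence and not measured binding.

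All levels are given in FPKM, the number of fragments scaled by transcript length and library size, as in the authors' tables and summed per gene. From the smallest steps between low values, 1 FPKM in a transcript of 1 kb stood for 26.7 to 42.1 reads in the DG controls, 48.5 to 66.0 in the DG KO, 37.0 to 46.0 in the SVZ controls and 34.0 to 50.2 in the SVZ KO libraries. Every DG KO library was thus deeper than every DG control library, and the part of depth in the results was not tested. Dpy30, the deleted gene, was lower in all 3 DG KO libraries (5.68 to 6.89 FPKM) than in the 3 controls (8.38 to 10.1 FPKM), a difference that did not pass (limma adjusted p = 0.073). In the SVZ the library labelled KO a held 8.83 FPKM of Dpy30, inside the control range of 7.73 to 9.43 FPKM, against 5.04 and 4.87 FPKM in KO b and c, and the SVZ difference of Dpy30 had a limma adjusted p of 0.42 with KO a and of 0.023 without it. The SVZ differences of the members and of the pathway genes named are therefore given with and without the library labelled KO a, while the counts by role and by marker list are over all libraries. All 4 dentate granule neuron markers and all 12 markers of neural stem cells and astrocytes reached 0.5 FPKM in at least 1 DG library, as did the latter in the SVZ. The granule neuron markers were read in the SVZ as well, where they summed to 20.2 to 32.6 FPKM. Their presence therefore does not tell the labelled tissues apart. Markers of striatal neurons, which do not belong to the DG, summed to 638 FPKM in DG control b, 270 in DG KO b and 621 in DG KO c, and to between 22.7 and 51.8 FPKM in the other DG libraries.

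The 10 genes spanned a wide range of levels, which FPKM allows to be compared because it is scaled by transcript length. In the DG controls Hes5 (15.0 ± 3.67 FPKM, SD, n = 3) and Hey1 (14.2 ± 2.28 FPKM) were the highest, and their ranges overlapped. Hes1 followed apart from its neighbours at 3.90 ± 0.182 FPKM, and then Notch1, Notch3 and Rbpj with overlapping ranges between 2.06 and 3.69 FPKM. Dll1, Notch2 and Jag1 lay between 1.20 and 2.03 FPKM and overlapped, and Hey2 was lowest, apart from the rest at 0.925 ± 0.114 FPKM. In the SVZ controls Hey1 led at 19.8 ± 1.03 FPKM, apart from Hes5 at 10.2 ± 3.57 FPKM. Rbpj, Hes1 and Notch1 followed at 2.79 to 4.62 FPKM, then Notch2, Notch3 and Hey2 at 0.974 to 2.36 FPKM, and Dll1 and Jag1 were lowest at 0.960 to 1.38 FPKM. The tissues were normalized in separate tables, so no level was compared between them.

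**Figure D1:**
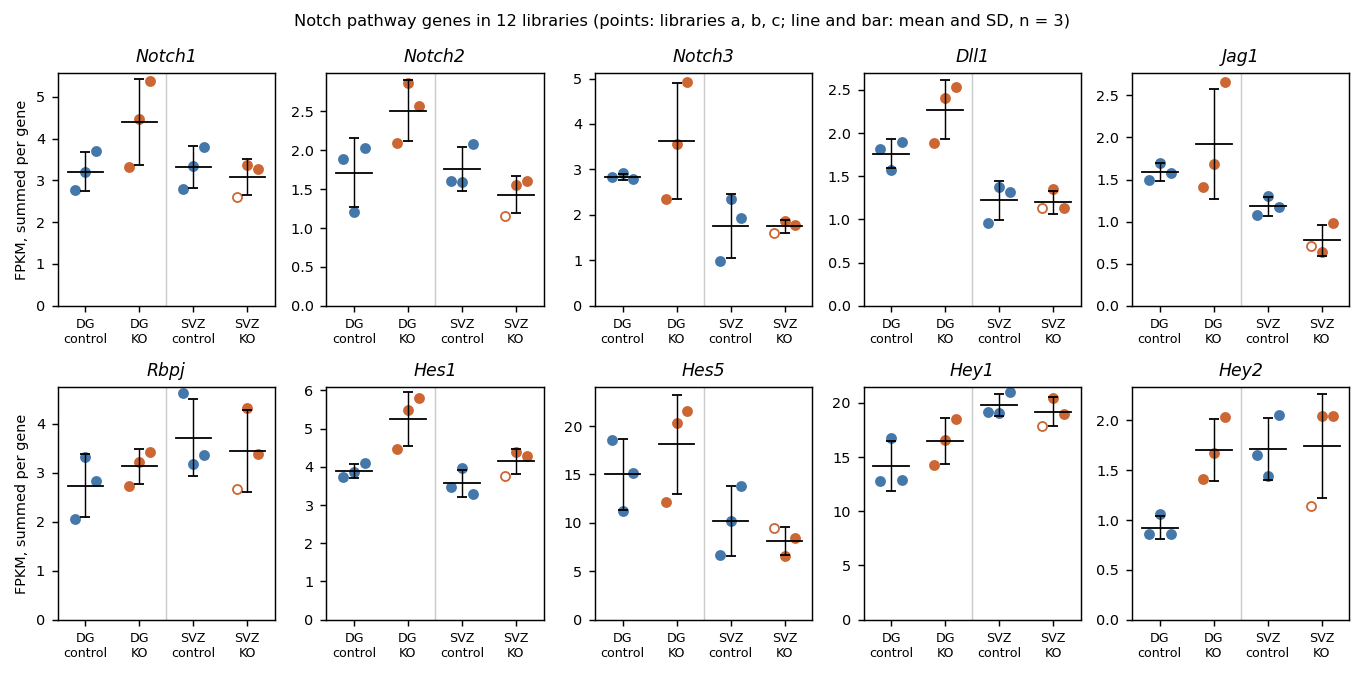
FPKM of the 10 Notch pathway genes (vertical axes, from 0) in the 12 libraries, grouped by tissue and genotype. Points are libraries a, b and c from left to right, lines are means and bars are SDs (n = 3). The open point is the SVZ library labelled KO a. In the DG the KO points of Notch2, Hes1 and Hey2 lie above all 3 control points, and in the SVZ the KO points of Jag1 lie below them.

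In the DG the KO libraries had on average more RNA of all 10 genes than the controls, with differences of 0.15 to 0.49 on the log2(FPKM + 1) scale and a median of 0.24, but no member passed the test. The 3 with the clearest separation were the repressor genes Hey2 and Hes1 and the receptor gene Notch2. By limma with Benjamini-Hochberg adjustment over 15454 genes, 0 of the 10 had an adjusted p under 0.05, where 0.699% of all genes tested did. The members' adjusted p ran from 0.072 to 0.57. At an unadjusted p under 0.05 there were 3 of 10, where 26.5% of all genes tested had one. The median difference over all genes tested was 0.09 and 65.3% of them were positive, so a positive difference was the usual state of a gene in this comparison. After centring each library on its median, 52.6% of all genes and still 10 of the 10 members were positive.

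Among the receptors, Notch1 (ENSMUSG00000026923.15, chr2:26457903-26516663 on GRCm38), the receptor most studied in neural stem cells, was at 2.76, 3.19 and 3.69 FPKM in the DG controls, against 3.32, 4.47 and 5.38 FPKM in KO. KO a lay within the control range and KO b and c above it. The ratio of the means was 1.37 and the log2 difference 0.34 (SE 0.16, limma adjusted p = 0.23). Notch2 (ENSMUSG00000027878.11, chr3:98013527-98150361), which in mice is linked to the quiescence of neural stem cells, was at 1.89, 1.20 and 2.03 FPKM in controls and at 2.09, 2.87 and 2.57 FPKM in KO. Every KO library was above every control, narrowly for KO a. The means were 1.71 ± 0.442 and 2.51 ± 0.394 FPKM (SD, n = 3), a 1.47-fold difference that did not pass (log2 difference 0.38, SE 0.15, limma adjusted p = 0.18). Notch3 (ENSMUSG00000038146.7, chr17:32120820-32166852), abundant in the smooth muscle and pericytes of vessels, was nearly constant in the controls at 2.83, 2.92 and 2.78 FPKM and spread out in KO at 2.36, 3.57 and 4.92 FPKM. KO a was the lowest of the 6 libraries and KO c the highest, and the log2 difference of 0.23 (SE 0.20) had a limma adjusted p of 0.50.

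Of the ligands, Dll1 (ENSMUSG00000014773.13, chr17:15367354-15376872), a Delta-like ligand made by progenitors and young neurons, was at 1.82, 1.57 and 1.90 FPKM in the DG controls, with KO at 1.89, 2.41 and 2.53 FPKM. Of the KO libraries, KO a lay just inside the control range (log2 difference 0.24, SE 0.11, limma adjusted p = 0.22). Jag1 (ENSMUSG00000027276.7, chr2:137081456-137116644), a Jagged ligand of progenitor, ependymal and vessel cells, was at 1.49, 1.70 and 1.58 FPKM in controls and at 1.41, 1.69 and 2.66 FPKM in KO. KO c alone stood above the controls, and without it the log2 difference of 0.15 (SE 0.16, limma adjusted p = 0.57) became -0.021. Rbpj (ENSMUSG00000039191.12, chr5:53466152-53657362), the factor through which all the receptors act, was at 2.06, 3.32 and 2.84 FPKM in controls and at 2.74, 3.22 and 3.43 FPKM in KO. The groups overlapped (log2 difference 0.15, SE 0.15, limma adjusted p = 0.53). The annotation holds 2 Rbpj pseudogenes, Rbpj-ps1 and Rbpj-ps3, between which reads can be split, so the level of Rbpj is uncertain.

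Hey2 (ENSMUSG00000019789.9, chr10:30832359-30842801), whose promoter is printed above, had the largest log2 difference of the 10 members in the DG. It was at 0.855, 1.06 and 0.863 FPKM in controls and at 1.41, 1.67 and 2.03 FPKM in KO, with a clear gap between the groups. The means were 0.925 ± 0.114 and 1.70 ± 0.311 FPKM (SD, n = 3), 1.84-fold apart, and the log2 difference of 0.49 (SE 0.11) missed the threshold at a limma adjusted p of 0.072. These values rest on roughly 72 to 277 reads a library. Hes1 (ENSMUSG00000022528.7, chr16:30064384-30067796), a repressor that in mouse progenitors oscillates against Dll1 and proneural genes, was at 3.74, 3.87 and 4.10 FPKM in controls and at 4.46, 5.48 and 5.80 FPKM in KO. All 3 KO libraries lay above all 3 controls. The means of 3.90 ± 0.182 and 5.25 ± 0.699 FPKM (SD, n = 3) were 1.35-fold apart (log2 difference 0.34, SE 0.11, limma adjusted p = 0.11).

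Hes5 (ENSMUSG00000048001.7, chr4:154960923-154962371), the target used most often as a readout of Notch activity in neural stem cells, was at 18.6, 11.2 and 15.2 FPKM in the DG controls, with KO at 12.2, 20.3 and 21.6 FPKM. Here KO a was among the lower values and KO b and c were the highest, so the groups overlapped (log2 difference 0.24, SE 0.25, limma adjusted p = 0.57). Hey1 (ENSMUSG00000040289.8, chr3:8663359-8667256), a related repressor, was at 12.8, 16.8 and 12.9 FPKM in controls and at 14.3, 16.6 and 18.5 FPKM in KO, also with overlap (log2 difference 0.21, SE 0.14, limma adjusted p = 0.37).

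In the DG 3 of the 10 members, Notch2, Hes1 and Hey2, had groups without overlap, each with KO higher. Of all genes tested 25.9% had all KO libraries above all controls, so the share of the members is close to that of genes in general. Their exact permutation test (two-sided, 3 against 3) gave a p of 0.1, and no smaller value is possible in this design. In the authors' deposited table, which tests transcripts, 3 of the 17 member rows had a p under 0.05: Hes1 (p = 0.012, step-up FDR 0.22), Hey2 (p = 0.0078, FDR 0.19) and Notch2 (p = 0.038, FDR 0.32). A p under 0.05 was held by 14.3% of all its rows, and 0 member rows had an FDR under 0.05.

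The DG KO libraries differed among themselves in a way shared by the members. Of the 3, KO a was the lowest for 10 of the 10 genes and KO c the highest for 9, with Notch2, highest in KO b, as the exception. Across all genes tested KO a was the lowest KO library for 38.0% and KO c the highest for 38.2%. KO a was the only one of the 3 from a female mouse, by its Xist and Kdm5d levels, while DG control c was female as well. Markers of neural stem cells and astrocytes, all 12 of which were above 0.5 FPKM in some library, summed to 954, 1110 and 1350 FPKM in DG KO a, b and c, against 904 to 1150 FPKM in the controls. Of the 12 genes 7 were positive and 5 negative, and 1 passed, Aldoc, which was lower in KO (log2 difference -1.29, limma adjusted p = 0.028) and is named because it passed. The 10 endothelial markers summed to 77.6, 94.2 and 118 FPKM in the same KO libraries, against 79.0 to 94.6 FPKM in the controls, with 9 of 10 positive (6 after median centring) and 0 passing. Microglia markers (98.0, 129 and 138 FPKM) and striatal neuron markers (41.2, 270 and 621 FPKM) also rose from KO a to KO c. Other lists did not have this order over KO a, b and c. Mural cell markers summed to 106, 89.5 and 104 FPKM and fibroblast markers to 94.5, 81.3 and 102 FPKM. The part of these cell types in the members' values was not tested.

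**Figure D2:**
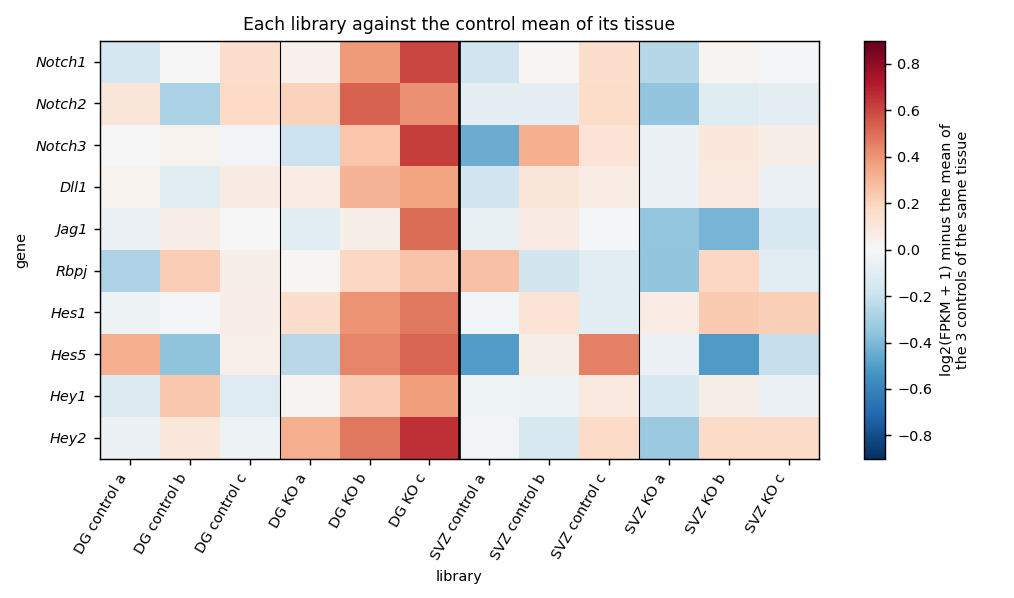
Difference of each library from the mean of the 3 controls of its tissue, in log2(FPKM + 1), for the 10 genes (rows) in the 12 libraries (columns), red for higher and blue for lower. The column of DG KO c is the reddest, with the highest of the 6 DG values in 9 of 10 genes, while DG KO a is near the controls for most genes. In the SVZ the columns of control a and of the library labelled KO a are mostly blue, each with 9 of 10 genes below the control mean.

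Markers of other cell types also varied in the DG. The 8 markers of myelinating oligodendrocytes summed to 245 to 2420 FPKM in controls and to 131 to 136 FPKM in KO, without overlap, with 7 of 8 negative, a median of -2.24 and 0 passing. The 4 dentate granule neuron markers summed to 24.3 to 42.5 FPKM in controls and to 13.3 to 19.3 FPKM in KO, also without overlap, with 3 of the 3 tested negative and 0 passing. Choroid plexus markers, 5 in the tables, summed to 2000 FPKM in DG KO b, 16.9 to 628 FPKM in the controls and 12.8 and 24.0 FPKM in KO c and a. The 8 mature neuron markers summed to 1730 to 1900 FPKM in controls and to 1020 to 1420 FPKM in KO, with 8 of 8 negative and 2 passing. The 8 fibroblast markers summed to 34.5 to 86.6 FPKM in controls and 81.3 to 102 FPKM in KO. The 6 ependymal markers summed to 7.75 to 14.4 FPKM in controls. In KO they summed to 12.1 FPKM in KO a, inside the control range, and to 31.0 and 28.2 FPKM in KO b and c. Every gene of both lists was positive (7 of 8 fibroblast markers after quantile normalization) and 0 passed. The 10 mural cell markers, 1 of them under 0.5 FPKM in every library, summed to 82.0 to 95.7 FPKM in controls and 89.5 to 106 FPKM in KO, 8 of the 9 tested being positive (5 after quantile normalization) and 0 passing. All 6 striatal neuron markers were positive too, summing to 22.7 to 638 FPKM in controls and 41.2 to 621 FPKM in KO, with 0 passing. In bulk RNA fewer cells of a type and less RNA per cell cannot be told apart, and the part of these cells in the results on the Notch genes was not tested.

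In the SVZ the 10 genes showed no common direction. With all 6 libraries 3 log2 differences were positive and 7 negative, with a median of -0.06 and a range from -0.30 for Jag1 to 0.17 for Hes1, and 0 of 10 passed by limma. Of all 15159 genes tested in the SVZ 0.0066% passed, which is 1 gene, and 55.5% were positive. The members' adjusted p was 0.37 or higher, and 1 of 10 had an unadjusted p under 0.05, where 12.6% of all genes did. Without the library labelled KO a, 7 were positive and 3 negative, where 58.4% of all genes were positive, the median was 0.01, and again 0 of 10 passed, although 8.69% of all genes tested did. The lowest adjusted p of a member was then 0.21, and 0 of 10 had an unadjusted p under 0.05, against 27.4% of all genes.

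Jag1 was the member whose SVZ groups did not overlap. It was at 1.08, 1.30 and 1.17 FPKM in controls and at 0.712, 0.633 and 0.988 FPKM in KO, so that each KO library, the one labelled KO a included, lay below each control. The means were 1.18 ± 0.113 and 0.778 ± 0.186 FPKM (SD, n = 3), 1.52-fold apart, with a log2 difference of -0.30 (SE 0.12, limma adjusted p = 0.37). Without the library labelled KO a it was -0.28 (SE 0.12, limma adjusted p = 0.21), and KO b and c lay below the controls in 19.1% of all genes tested. The exact permutation test over the 6 libraries (two-sided) gave a p of 0.1. Among all genes tested 7.78% had all SVZ KO libraries below all controls, and 1 of the 10 members did. The values of Jag1 rest on roughly 114 to 249 reads a library.

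Hes1 had the largest positive difference of the members in the SVZ, at 3.48, 3.96 and 3.28 FPKM in controls and 3.77, 4.38 and 4.29 FPKM in KO. The library labelled KO a lay inside the control range and KO b and c above it. The log2 difference was 0.17 (SE 0.12, limma adjusted p = 0.55) and without KO a 0.22 (SE 0.12, limma adjusted p = 0.25). Hes1 was thereby the only member with KO b and c above all SVZ controls, a state that 30.8% of all genes tested shared. Hes5 was scattered within both genotypes, at 6.64, 10.2 and 13.8 FPKM in controls and 9.45, 6.61 and 8.39 FPKM in KO. Its log2 difference of -0.25 had an SE of 0.24 (limma adjusted p = 0.66), and without KO a it was -0.35 (SE 0.26, limma adjusted p = 0.42).

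Hey1, the most abundant member in the SVZ, was also among the steadiest, at 19.2, 19.1 and 21.0 FPKM in controls and 17.9, 20.5 and 19.0 FPKM in KO. Its log2 difference was -0.04 (SE 0.10, limma adjusted p = 0.88), and without KO a 0.00 (SE 0.10). Hey2, which had the largest DG difference, was at 1.65, 1.44 and 2.05 FPKM in the SVZ controls and 1.14, 2.04 and 2.04 FPKM in KO. The library labelled KO a was the lowest of the 6 and the log2 difference was 0.00 (SE 0.17), becoming 0.17 (SE 0.13, limma adjusted p = 0.43) without it.

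The receptors did not separate the SVZ groups. Notch1 was at 2.79, 3.35 and 3.80 FPKM in controls and 2.59, 3.37 and 3.27 FPKM in KO (log2 difference -0.08, SE 0.14, and 0.01, SE 0.13, without KO a). Notch2 was at 1.60, 1.59 and 2.08 FPKM in controls and 1.15, 1.55 and 1.60 FPKM in KO, a difference of -0.18 (SE 0.13) that became -0.10 (SE 0.12) without KO a. Notch3 varied most in the controls, at 0.974, 2.36 and 1.92 FPKM, with KO libraries at 1.59, 1.87 and 1.78 FPKM between these extremes (log2 difference 0.03, SE 0.19, and 0.07, SE 0.22, without KO a). SVZ control a, the lowest for Notch3, was the only SVZ library from a female mouse, and without it the difference was -0.191. Dll1 was at 0.960, 1.38 and 1.32 FPKM in controls and 1.13, 1.35 and 1.13 FPKM in KO (log2 difference -0.01, SE 0.12, and 0.02, SE 0.13, without KO a). Rbpj was at 4.62, 3.18 and 3.36 FPKM in controls and 2.66, 4.32 and 3.38 FPKM in KO (log2 difference -0.09, SE 0.18, and 0.05, SE 0.17, without KO a). The signs of Notch3, Dll1 and Hey2 in the SVZ turned with the processing and with single libraries left out. The sign of Rbpj turned without SVZ control a and without the library labelled KO a. Those of Notch1 and Hey1 turned only without the library labelled KO a.

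Of the 17 member rows in the SVZ, 1 had a p under 0.05 in the authors' deposited table, against 10.1% of all rows. This row was the short transcript Hey1-202, with means of 1.15 FPKM in control and 0.597 FPKM in KO, a fold of 1.92. The authors' p for it was 0.033 and their step-up FDR 0.46. It made up 3.69% to 7.05% of the Hey1 FPKM in the SVZ controls and 1.90% to 4.20% in KO. The longer Hey1 transcript had a fold of 1.00 there, again by the authors' deposited table. Rbpj was spread over 5 transcript rows, of which Rbpj-203 took 55.7% ± 6.57 (SD, n = 3) of the gene's FPKM in the DG controls and 43.7% ± 15.4 in DG KO. Taken alone, that row gave a DG log2 difference of -0.11, against 0.15 for the sum.

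In the SVZ, markers of neural stem cells and astrocytes summed to 1260 to 1630 FPKM in controls and 792 to 1130 FPKM in KO, without overlap, with 11 of 12 negative and 0 passing. The 10 endothelial markers summed to 66.3 to 84.7 FPKM in controls and 53.3 to 60.1 FPKM in KO, with 10 of 10 negative and 0 passing. The 10 mural cell markers, 1 of them under 0.5 FPKM in every library, summed to 49.9 to 65.3 FPKM in controls and 46.5 to 55.6 FPKM in KO, and the 6 ependymal markers to 7.03 to 13.3 and 6.42 to 7.95 FPKM. The 8 microglia markers summed to 135 to 186 FPKM in controls and 97.6 to 124 FPKM in KO, and the 6 striatal neuron markers to 414 to 550 and 339 to 379 FPKM, both without overlap, with every gene of both lists negative and 0 passing. Jag1 is expressed in several of these cell types, and their part in its values was not tested. The 8 markers of myelinating oligodendrocytes summed to 2990 to 5930 FPKM in controls, 3890 FPKM in the library labelled KO a and 206 to 269 FPKM in KO b and c. The 9 neuroblast markers summed to 363 to 613 FPKM in controls and 384 to 421 FPKM in KO, with 6 negative and 0 passing. Choroid plexus markers, 5 in the tables, summed to 122 FPKM in SVZ control a and 158 FPKM in the library labelled KO a. In the other SVZ libraries they summed to 3.69 to 9.62 FPKM, and 0 of the 4 tested passed. Control a and KO a were also the SVZ libraries with 9 of 10 members below the control mean. The part of choroid plexus in the members' values was not tested.

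**Figure D3:**
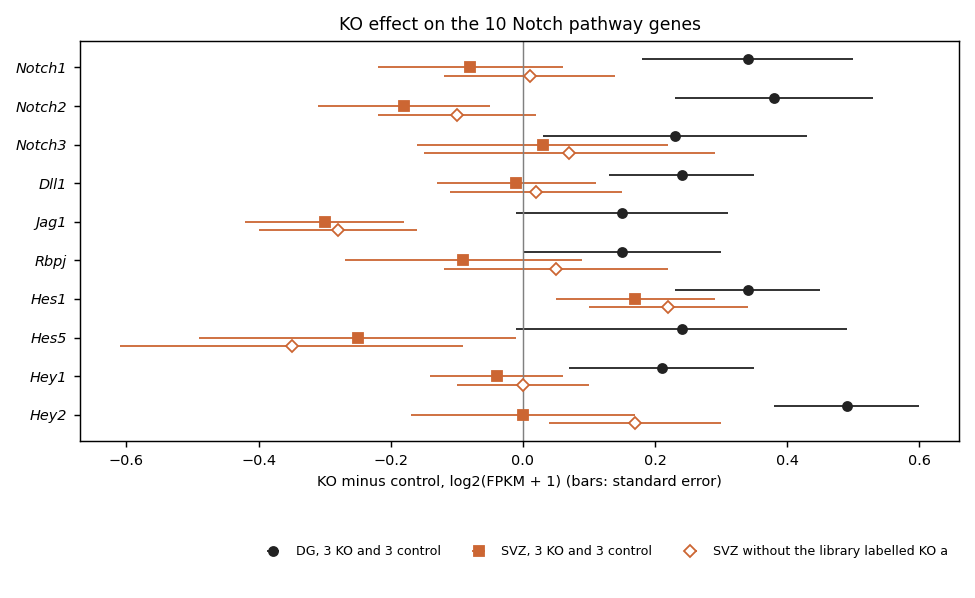
Log2(FPKM + 1) difference, KO minus control, of the 10 genes (rows) with standard errors as bars, in the DG (black circles), in the SVZ (filled squares) and in the SVZ without the library labelled KO a (open diamonds). All 10 DG values lie between 0.15 and 0.49, while the SVZ values lie on both sides of 0. Near 0 their signs turn with the processing (Notch3, Dll1 and Hey2) or only without the library labelled KO a (Notch1 and Hey1). That of Rbpj turns without SVZ control a and without the library labelled KO a. No value passed the test in either tissue.

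The difference of the KO effects between the tissues was then tested directly in a model of all 12 libraries. The SVZ effect was below the DG effect for 10 of the 10 genes, by 0.17 to 0.56 on the log2 scale with a median of -0.34 for SVZ minus DG, and 0 of 10 passed by limma, where 0.0335% of 14922 genes did. Over all genes tested the median of this difference was -0.06 and 58.3% were negative. At an unadjusted p under 0.05 there were 3 of 10 members, against 15.9% of all genes. These were Notch2 (-0.56, SE 0.20, limma adjusted p = 0.22), Hey2 (-0.49, SE 0.21, limma adjusted p = 0.29) and Jag1 (-0.45, SE 0.20, limma adjusted p = 0.30). Hes1, positive in both tissues, had the smallest difference (-0.17, SE 0.15, limma adjusted p = 0.61). Without the SVZ library labelled KO a the difference was again negative for 10 of the 10 genes, against 53.9% of all genes, with a median of -0.27 and a lowest limma adjusted p of 0.25, and 0 of 10 passed, where 0.429% of all genes did. Of the 10, 1 then had an unadjusted p under 0.05, Notch2 (-0.48, SE 0.21), against 18.4% of all genes. Without DG KO c the difference for Notch3 was 0.001, against -0.20 with it.

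For each member the genes with the most similar pattern over the 12 libraries were found from log2(FPKM + 1) values centred within each tissue, as the smallest mean absolute difference. Among the 3 nearest to Hes5 were Mmp15 (0.106) and Samd14 (0.116). Those nearest to Hey2 were Nfkb2 (0.065), Cnot6 (0.069) and Eif2ak2 (0.069), and to Hes1 Wdr4 (0.046) and Agap1 (0.047). Jag1 was nearest to Wwtr1 (0.058) and Atp13a5 (0.059), Notch2 to Zfp36l1 (0.052), Notch3 to Rgma (0.076) and Dll1 to Dclk2 (0.037). Notch1 was nearest to Rps13-ps1 (0.049), a pseudogene whose reads may come from its parent gene, Rbpj to Atad2 (0.071) and Hey1 to Tln2 (0.050). No other member was among the 3 genes nearest to any member.

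The rest of the pathway was taken from a list of 57 further genes by role, of which 54 were in the tables. The level allowed a test of 52 of them in the DG and of 50 in the SVZ. With limma 0 of them passed in the DG and 0 in the SVZ. In the DG 38 were positive and 14 negative (median 0.10, against 0.09 over all genes), 10 had all KO libraries above all controls, as did 25.9% of all genes tested, and 3 below, as did 7.82%. After median centring 30 of these were positive in the DG. In the SVZ 27 were positive and 23 negative (median 0.04, against 0.03), 0 had all KO libraries above the controls and 4 below, against 7.86% and 7.78% of all genes tested. Without the library labelled KO a, 2 passed in the SVZ, among them Fbxw7, which was lower.

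The glycosyltransferases that modify the receptors' extracellular domain were the group with the highest DG median, 0.30, with 5 of 5 positive (4 of 5 after median centring) and 0 passing. Lfng, the Fringe enzyme that shifts receptor preference towards Delta-like ligands, was at 6.32, 6.66 and 7.15 FPKM in the DG controls and at 8.88, 13.3 and 14.8 FPKM in KO. Its groups were clearly apart, with means of 6.71 ± 0.420 and 12.3 ± 3.07 FPKM (SD, n = 3), 1.84-fold apart, and a log2 difference of 0.76 (SE 0.18, limma adjusted p = 0.072). In the SVZ Lfng was at 5.72, 7.67 and 11.2 FPKM in controls and 5.93, 7.29 and 9.11 FPKM in KO and the groups overlapped (log2 difference -0.10, SE 0.23, limma adjusted p = 0.88, and 0.04, SE 0.24, without KO a). Mfng, a second Fringe, had a DG difference of 0.36 (SE 0.16, limma adjusted p = 0.22) and an SVZ difference of -0.10 that was 0.02 without KO a. Rfng had an SVZ difference of 0.21 (SE 0.15, limma adjusted p = 0.56), and 0.19 without KO a.

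Of the 9 protease genes, 6 were positive in the DG (5 after median centring or quantile normalization) and 5 in the SVZ, and 0 passed in either. Adam17, a sheddase that can cut Notch outside the membrane, was at 2.99, 3.61 and 3.69 FPKM in the DG controls and at 4.54, 4.85 and 5.64 FPKM in KO, all KO libraries being higher (log2 difference 0.44, SE 0.11, limma adjusted p = 0.080). In the SVZ it was at 5.62, 4.44 and 4.38 FPKM in controls and 3.67, 3.66 and 4.02 FPKM in KO, all KO libraries being lower (log2 difference -0.28, SE 0.13, limma adjusted p = 0.41, and -0.26, SE 0.13, without KO a). Adam10, the main sheddase of Notch on ligand binding, was at 13.8, 14.7 and 14.6 FPKM in the DG controls, with KO at 16.8, 16.9 and 17.0 FPKM, a small gap with little spread within either genotype (log2 difference 0.22, SE 0.06, limma adjusted p = 0.10). The gamma-secretase subunit gene Aph1c had an SVZ difference of -0.22 (SE 0.14, limma adjusted p = 0.51), and without KO a of -0.33 (SE 0.11, limma adjusted p = 0.12).

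Among the ligands and ligand-like genes, 6 in the DG test and 5 in the SVZ test, with 0 passing, Dner, a neuronal ligand-like protein, was the highest at 34.4 to 68.5 FPKM in the DG controls. Its DG difference was 0.25 (SE 0.25, limma adjusted p = 0.55) and its SVZ difference 0.37 (SE 0.22, limma adjusted p = 0.49), which was 0.59 without KO a (SE 0.18, limma adjusted p = 0.094). Dll3 differed by 0.19 in the DG (SE 0.14, limma adjusted p = 0.43) and Dll4, the endothelial Delta-like ligand, by -0.13 in the SVZ (SE 0.14, limma adjusted p = 0.70), with or without KO a. The receptor gene Notch4, expressed mainly in endothelium, differed by 0.21 in the DG (SE 0.14) and by 0.27 in the SVZ (SE 0.24, and 0.42, SE 0.25, without KO a), and passed in neither.

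Of the 12 genes of endocytosis and ubiquitination, which sort ligands and receptors, 8 were positive in the DG (4 after median centring) and 7 in the SVZ (6 after it), and 0 passed with all libraries. Numbl, a homologue of the Notch antagonist Numb, was at 59.5, 42.1 and 51.2 FPKM in the DG controls and 37.7, 39.0 and 32.2 FPKM in KO, all KO libraries being lower (log2 difference -0.47, SE 0.14, limma adjusted p = 0.11). In the SVZ the sign was opposite, with 23.8, 34.3 and 37.5 FPKM in controls and 36.4, 53.1 and 47.3 FPKM in KO (log2 difference 0.51, SE 0.20, limma adjusted p = 0.37, and 0.66, SE 0.19, limma adjusted p = 0.080 without KO a). The SVZ groups overlapped, with KO a inside the control range. Under 18 alternative settings the Numbl effect in the SVZ minus that in the DG was 0.79 to 1.13. Its limma adjusted p was 0.076 to 0.32, so it passed in 0 of them. Fbxw7, which targets the released Notch domain for degradation, had a DG difference of -0.33 (SE 0.15, limma adjusted p = 0.23) and an SVZ difference of -0.46 (SE 0.22, limma adjusted p = 0.41). In the SVZ it was at 68.9, 57.3 and 52.7 FPKM in controls, 61.8 FPKM in the library labelled KO a and 35.2 and 36.3 FPKM in KO b and c. Without KO a it passed, with a log2 difference of -0.71 (SE 0.13, limma adjusted p = 0.026).

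The 14 nuclear cofactors had a DG median near that of all genes (0.12, with 10 positive, 9 after quantile normalization) and were evenly divided in the SVZ (7 positive, 7 negative). Hdac1, a histone deacetylase of corepressor complexes, was at 2.29, 3.26 and 2.74 FPKM in the SVZ controls and 1.51, 1.24 and 2.15 FPKM in KO, all KO libraries being lower (log2 difference -0.52, SE 0.16, limma adjusted p = 0.37, and -0.49, SE 0.18, without KO a). In the DG the largest differences of this group were those of the coactivator genes Maml2 (0.21, SE 0.12) and Crebbp (0.20, SE 0.09), neither of which passed.

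Further targets and Hes family members gave 3 of 3 positive in the DG (2 of 3 under other scalings) and 3 of 3 negative in the SVZ, with 0 passing in each. Hes6, whose product opposes Hes1 in mouse neural progenitors, had DG values of 13.9, 9.44 and 14.4 FPKM in controls and 14.4, 18.1 and 15.9 FPKM in KO (log2 difference 0.35, SE 0.17, limma adjusted p = 0.24), and an SVZ difference of -0.08 with or without KO a. Nrarp, a Notch target that feeds back on the pathway, differed by 0.10 in the DG (SE 0.16) and by -0.38 in the SVZ (SE 0.19, limma adjusted p = 0.43), and by -0.46 without KO a (SE 0.20, limma adjusted p = 0.20).

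Neurog2, a proneural gene of glutamatergic precursors, was at 0.451, 0.672 and 2.03 FPKM in the DG controls and at 0.0885, 0.102 and 0.0502 FPKM in KO. All KO libraries were lower, on roughly 6 to 13 reads each against 40 to 190 in the controls, and control c was far above the other controls. The means of 1.05 ± 0.855 and 0.0802 ± 0.0268 FPKM (SD, n = 3) were 13.1-fold apart, and the log2 difference of -0.85 (SE 0.26) did not pass (limma adjusted p = 0.11). Without control c the control mean was 0.562 FPKM, 7.01-fold above KO, and the log2 difference -0.53 (SE 0.11, limma adjusted p = 0.12). In the SVZ Neurog2 was under the minimum level for testing, at 0.427, 0.485 and 0.586 FPKM in controls, 0.606 FPKM in the library labelled KO a and 0.196 and 0.107 FPKM in KO b and c.

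**Figure D4:**
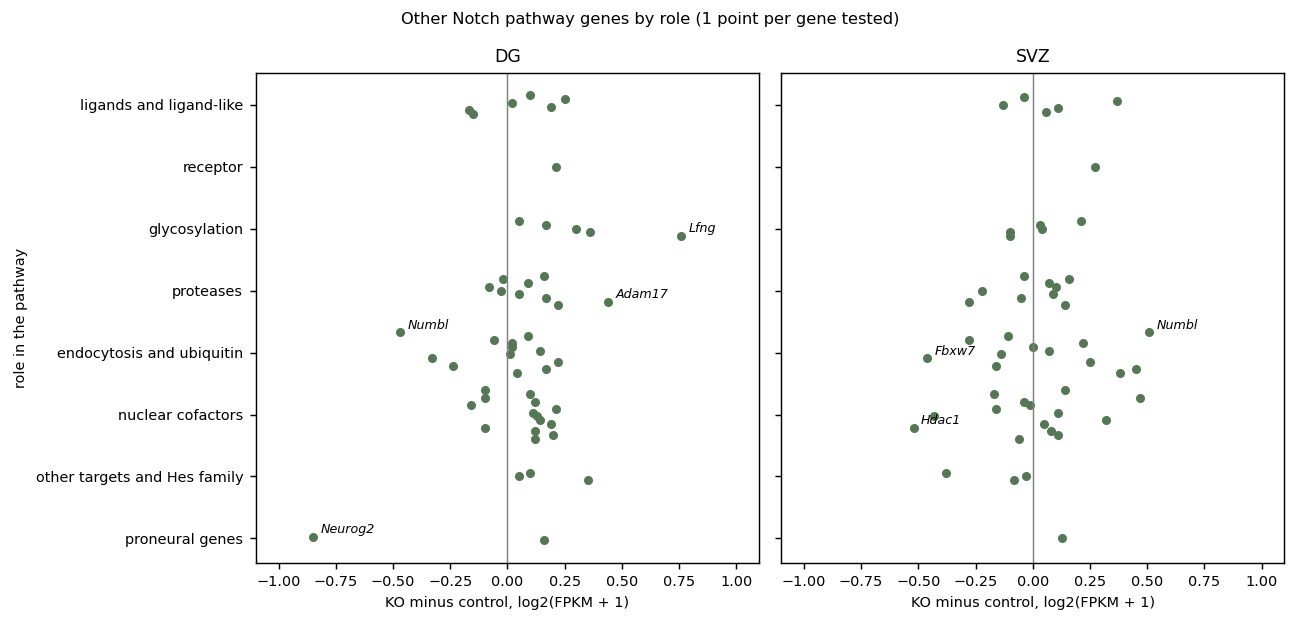
Log2(FPKM + 1) difference, KO minus control (horizontal axes), of the other Notch pathway genes tested in the DG (left, 52 genes) and the SVZ (right, 50 genes), 1 point per gene, by role (vertical axis). Genes described in the text are named where their absolute difference is above 0.4. All 5 glycosylation genes lie above 0 in the DG (4 after median centring), led by Lfng at 0.76, Neurog2 lies lowest at -0.85, and Numbl lies on opposite sides in the tissues (-0.47 and 0.51). None passed the test in either tissue with all libraries.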

How the data were processed

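The labels' protocols give extraction of total RNA, polyA+ selection and an mRNA library kit, and the submitters' processing notes name CASAVA 1.8.4, TopHat2 2.1.0, Partek and GRCm38 (mm10) without roles or settings. The deposited tables held FPKM values of 40483 transcripts a tissue, named as TMM-scaled, with columns that give a group and no replicate. The authors' deposited comparison tables held, per the file headers, p-values, a step-up FDR, group means and a signed fold change with control over KO, a score that is positive where control was higher. Rows of both kinds of table were matched on gene name and group means within a relative 0.0001 and added up to 17990 genes, with 0 per-sample columns left out. These files held no counts, so no count model was fitted. Depth was estimated from steps in the low values, of which 54.5% to 65.5% lay within 0.1 of a whole read, too few to recover reads, and read numbers are therefore approximate.

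Genes averaging 0.5 FPKM or more in a tissue's 6 libraries were tested as log2(FPKM + 1), a scale that understates changes of low genes, using lmFit and eBayes with trend from limma 3.58.1 (R 4.3.3) and Benjamini-Hochberg adjustment over all genes, threshold 0.05. Single members were also tested by exact permutation. Folds are ratios of mean FPKM. The code was tested on simulated data. All 10 members are named. Other pathway genes are named if they passed or had 1 of the 2 largest differences of their role in a tissue, and some of these are not reported here. Members and lists were chosen with earlier results of these data known. The list genes Hes3, Neurog1 and Atoh1 were not analysed here. Gene positions are those of the GENCODE annotation of GRCm38. The sources used here do not say whether the library kit preserved strand, and reads of Notch1, Notch3, Dll1, Rbpj and Hes5 therefore cannot be told apart from those of genes annotated on the opposite strand at the same place. Alternatives were other pseudocounts (0.1 and 0.5), no minimum or one of 2 FPKM, median centring, quantile normalization, sex as a term, all 12 libraries in 1 model, the most abundant transcript row of each member, and leaving out each library.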

Additional observations from a re-analysis of the deposited data

Results flagged for a closer look

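Adam17, the gene of a sheddase that can cut Notch, differed between KO and control in opposite directions in the tissues: all 3 KO libraries lay above all 3 controls in the DG (log2 difference 0.44) and all 3 lay below them in the SVZ (-0.28). Neither passed (limma adjusted p = 0.080 in the DG and 0.41 in the SVZ). Of all genes tested, 25.9% had all KO libraries higher in the DG and 7.78% had all lower in the SVZ. The difference of the Adam17 effects, SVZ minus DG, was -0.72 (SE 0.16, limma adjusted p = 0.10 over 14922 genes), so it did not pass after adjustment. Without the SVZ library labelled KO a it was -0.70 (limma adjusted p = 0.093). Groups of 3 libraries are too small for the search for single outlying samples.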

How the results depend on the processing

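The count of members that passed was 0 in the DG, in the SVZ and for the difference between tissues under every alternative run, and of 488 member values 463 kept their direction and 25 turned. Part of the 463 could not turn, because some alternatives leave a log2 difference as it is. These are the exact permutation test, another minimum, the model of all 12 libraries and, in the DG, the sex term. The most abundant transcript row also changes nothing for members with 1 row. In the DG all 10 members stayed positive except Rbpj taken as its most abundant transcript row (-0.11) and Jag1 without DG KO c. In the SVZ, Notch3 was -0.001 with median centring and -0.191 with sex as a term, Dll1 0.003 with quantile normalization, Rbpj 0.045 with sex, and Hey2 -0.032 with median centring, -0.011 and -0.004 with pseudocounts of 0.1 and 0.5 and -0.014 with sex. With 1 female SVZ library, the sex term equals leaving out SVZ control a. The number of positive members in the SVZ, 3 of 10, was 1 of 10 with median centring and 1 of the 5 tested with a minimum of 2 FPKM. The causes were not tested.

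Leaving out 1 library moved that number from 1 (without SVZ KO b) to 7 (without the library labelled KO a), and the number of positive differences between tissues from 0 to 1 (without DG KO c). The ranges over left-out libraries of the values that turned were -0.021 to 0.278 for Jag1 in the DG. In the SVZ they were -0.172 to 0.007 for Notch1, -0.191 to 0.192 for Notch3, -0.093 to 0.046 for Dll1, -0.225 to 0.046 for Rbpj, -0.094 to 0.000 for Hey1 and -0.084 to 0.170 for Hey2. Values that kept their sign but moved by over 1.5 times included the DG differences of Notch3 (0.029 without KO c to 0.437 without KO a), Rbpj (0.016 without control a to 0.265 without control b) and Hes5 (0.061 without control b to 0.485 without KO a) and the SVZ difference of Hes5 (-0.502 without control a to -0.026 without control c). The difference between tissues of Notch3 ranged from -0.418 to 0.001. Of the other genes, Nrarp in the DG ranged from -0.043 to 0.247, and in the SVZ Dll4 from -0.204 to 0.011, Mfng from -0.200 to 0.020 and Hes6 from -0.284 to 0.049. Of 426 values of other pathway genes 419 kept their call, 2 newly passed (Fbxw7 among them, both without the library labelled KO a) and 5 turned. The 419, too, include alternatives that cannot change a log2 difference. Over all genes the DG count of 108 fell to between 0 and 3 without any 1 library. The adjusted p of Hey2 in the DG ranged from 0.066 to 0.22 and that of Lfng from 0.054 to 0.23. Of the members, Hey2 fell to the lowest read numbers, at roughly 72 to 277 a library in the DG and 99 to 261 in the SVZ. In the SVZ Jag1 and Dll1 rest on roughly 114 to 249 and 137 to 217 reads a library. The part of depth in the spread of these genes was not tested. No paired analysis was possible because the columns name a group and carry no replicate number.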
